A study of Homo sapiens with 6 samples.

Results

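The respiratory chain of mitochondria is built mostly from proteins encoded in the nucleus, and 85 of the 20026 genes in the deposited expression table were taken here as its nuclear-encoded subunits. They were chosen by symbol alone: the prefixes ATP5, UQCR, COX4 to COX8 and NDUF followed by A, B, C, S or V, plus the 4 succinate dehydrogenase genes SDHA to SDHD. By complex they were 37 genes of complex I, 4 of complex II, 9 of complex III, 13 of complex IV and 18 of complex V. Another 4 were set apart because they regulate or accompany a complex or have been moved between complexes, namely NDUFA4, NDUFA4L2, COX7A2L and ATP5IF1. Symbols that begin alike but were left out were 8 NDUFAF assembly factors, 2 antisense or divergent transcripts, 1 pseudogene and 2 readthrough genes. The readthrough genes NDUFC2-KCTD14 (1284 to 2038 counts per library) and ATP5MF-PTCD1 (587 to 972 counts) share exons with NDUFC2 and ATP5MF, so how reads were divided between them is uncertain. The mitochondrial DNA genes and the isoforms COX6A2, COX7B2 and COX8C were not analysed here.

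The study removed microRNAs from HepG2, a human liver cancer cell line, to learn what the miR-23a and miR-27a members of a shared gene cluster do there. RNA was sequenced from 6 libraries, 2 in each of 3 groups: miR-23a KO, miR-27a KO and the control Scr, whose genotype label is WT. The study's methods describe Cas9 editing from a plasmid with a fluorescent marker, sorting of single cells and growth of colonies, with scramble colonies as the control. By the study's qPCR the edits were not confined to one microRNA, since colonies of miR-23a KO also held less miR-24-3p and miR-27a-3p and those of miR-27a KO less miR-24, so neither group is a model of 1 microRNA alone. For the miR-27a KO colonies the study also reports slightly more miR-23a-3p and less miR-23a-5p. The labels do not say which colony each library came from or whether the replicates were separate cultures, so the p-values measure only the spread between these samples. The column names of the 2 libraries in a group share one stem. A difference between colonies cannot be told apart here from an effect of the edit. The cell type label joins the word triple-negative, a term of breast cancer, to liver cancer cells. Replicates 1 and 2 had summed counts of 14891288 and 14405302 for Scr, 16515321 and 15930834 for miR-23a KO, and 15850642 and 15947365 for miR-27a KO.

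Electrons enter the chain at complex I, which oxidises NADH, or at complex II, the succinate dehydrogenase that also works in the citric acid cycle. Complex III passes them from ubiquinol to cytochrome c, complex IV hands them to oxygen, and complex V, the ATP synthase, uses the proton gradient that complexes I, III and IV build up. Hepatocytes hold many mitochondria, while liver cancer lines such as HepG2 in glucose-rich medium draw much of their ATP from glycolysis.

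Levels are given as CPM, the usual count scaled to the depth of its library, here with TMM factors, and genes are compared with each other only as RPKM, the same counts divided by transcript length. Differences between groups are log2 fold changes with their standard error from edgeR's quasi-likelihood test, with the Benjamini-Hochberg adjustment of p over all genes tested. A gene is said to have risen or fallen where its adjusted p was under 0.05. The study's thresholds, over 1.5-fold with a q under 0.001, are set beside it on edgeR's adjusted p, since the study does not name its own test. Of the 85 genes, 78 had enough counts to be tested. The other 7 were NDUFA4, NDUFA4L2, COX4I2, COX6B2, COX7A1, UQCRHL and ATP5MGL. COX7A2L and ATP5IF1, set apart above, are among the 78 and are counted with the subunits.

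Across all 85 genes the summed level was 9977 and 9712 CPM in Scr, 15916 and 6964 CPM in miR-23a KO, and 9117 and 9304 CPM in miR-27a KO. The pairs of Scr and miR-27a KO were close to each other, while the miR-23a KO libraries lay far above and far below both. With TMM factors of 0.796 and 1.166 for its replicates 1 and 2, the highest miR-23a KO library held 2.29 times the level of the other. As a share of all counts, without those factors, the 85 genes held 1.27% in replicate 1 and 0.812% in replicate 2. In bulk RNA a smaller number of cells making these transcripts and less transcript per cell cannot be told apart.

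**Figure D1:**
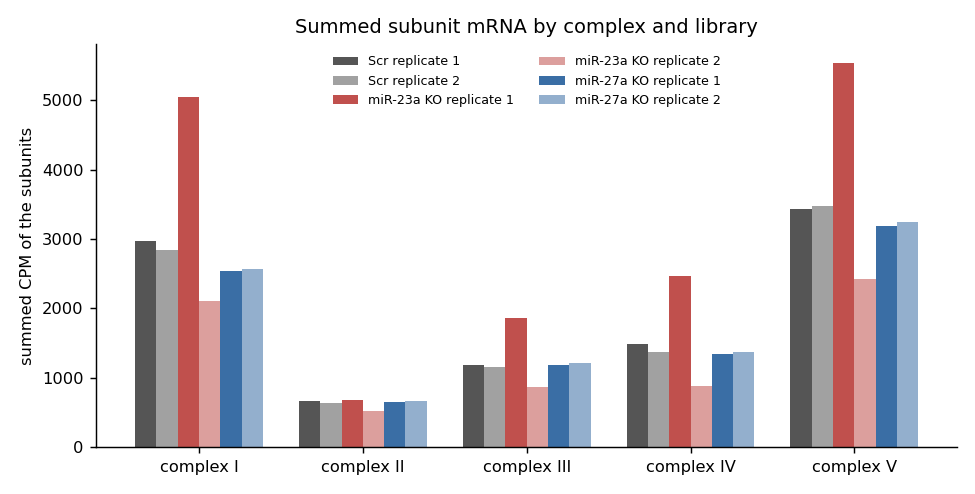
Summed CPM of the subunit genes of each complex (vertical axis, from 0) in each of the 6 libraries. In every complex miR-23a KO replicate 1 was the highest library and miR-23a KO replicate 2 the lowest, with the narrowest gap in complex II (674 and 513 CPM). As a share of all counts, without TMM factors, complex II was instead lowest in miR-23a KO replicate 1 (0.0536%, against 0.0598% in replicate 2).

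With TMM factors the gap between the miR-23a KO libraries ran through every complex but was uneven. In complex II its order rested on those factors, since the share of all counts was 0.0536% in replicate 1 and 0.0598% in replicate 2. Complex I summed to 5052 and 2104 CPM in them, against 2967 and 2835 CPM in Scr and 2539 and 2569 CPM in miR-27a KO. Complex IV had the widest gap, 2461 and 886 CPM, a ratio of 2.78, where Scr held 1481 and 1374 CPM and miR-27a KO 1339.95 and 1376 CPM. The ratio was 2.40 in complex I, 2.28 in complex V, 2.16 in complex III and 1.31 in complex II. Complex V summed to 3429.6 and 3480.3 CPM in Scr, 5536 and 2428 CPM in miR-23a KO and 3181 and 3249 CPM in miR-27a KO. For complex III the sums were 1186 and 1149 CPM, 1865 and 865 CPM, and 1179.9 and 1209 CPM, in the same order. Complex II, the smallest, had 657 and 627 CPM in Scr and 644 and 658 CPM in miR-27a KO.

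Gene by gene, with the same TMM factors, the same split appeared. In miR-23a KO replicate 1, 71 of the 78 tested subunits were above the mean of Scr, with a median log2 difference of 0.64. In replicate 2 only 7 of 78 were above it, and the median was -0.51. Over 13444 genes with enough counts in the 6 libraries the medians were -0.05 and -0.08, so the subunits departed from the bulk of genes in both libraries and in opposite directions. Between the libraries of one group, the median log2 difference of replicate 2 minus replicate 1 over the subunits was -1.12 in miR-23a KO, -0.04 in Scr and 0.03 in miR-27a KO. In miR-23a KO, 74 of 78 subunits were higher in replicate 1, against 47.6% of all genes, and 44 of 78 (56.4%) differed by over 2-fold, against 46.8% of all genes in either direction. The exceptions were NDUFS1 (0.95), UQCRC2 (0.37), SDHD (0.05) and NDUFV2 (0.04), which were higher in replicate 2.

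**Figure D2:**
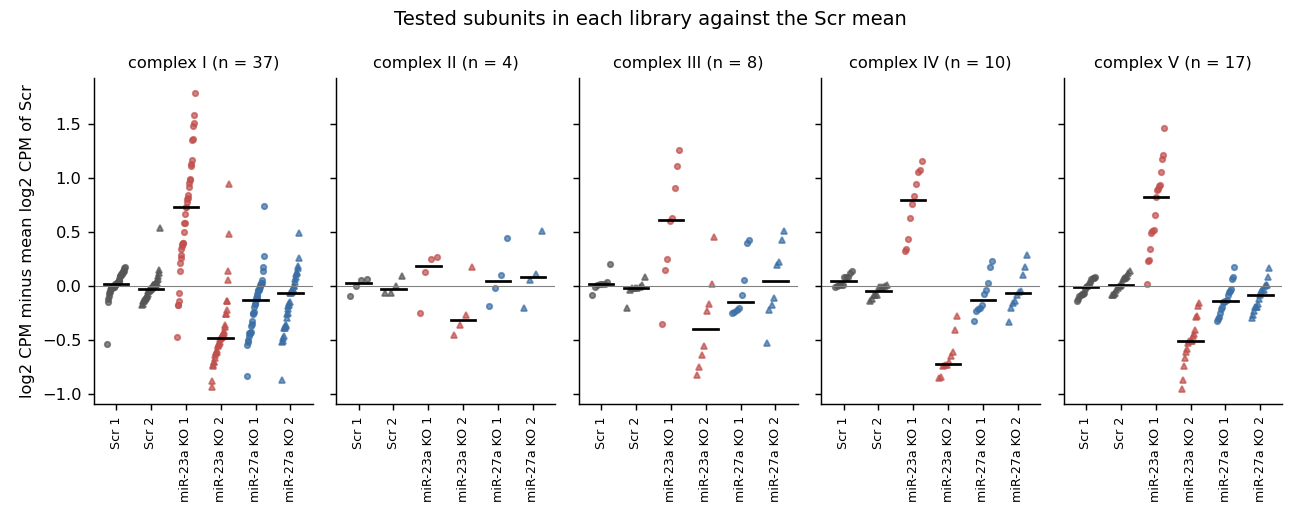
Log2 CPM of each tested subunit minus its mean in Scr (vertical axis) in the 6 libraries, with 1 panel for each complex and a bar at the median. In complexes I, III, IV and V most points of miR-23a KO replicate 1 lie above 0 and most of replicate 2 below, while the points of complex II stay nearer 0.

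By complex, the median log2 difference between the miR-23a KO libraries was -1.47 in complex IV, -1.28 in complex V, -1.04 in complex I, -0.86 in complex III and -0.33 in complex II. NDUFB7, an accessory subunit of complex I, had the widest gap, 409.9 and 85.0 CPM, and NDUFS7 and ATP5F1D followed with 302 and 63.6 CPM and 418 and 91.1 CPM. The narrowest gaps were those of NDUFV2 (114 and 118 CPM) and SDHD (47.5 and 49.1 CPM), and SDHA, the flavoprotein of complex II, had 209 and 193 CPM. SDHB had 222 and 136 CPM.

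Transcripts rich in G and C showed the wider gap. Across the 78 subunits, which share the same libraries and are not independent replicates, Spearman's correlation between GC content and the difference of replicate 2 minus replicate 1 was -0.60 in miR-23a KO, -0.19 in Scr and -0.14 in miR-27a KO. Over the 13444 genes it was -0.67 in miR-23a KO, -0.45 in Scr and -0.10 in miR-27a KO. When the subunits were divided by GC content into 3 groups of 26, the median difference was -0.72 in the lowest, -0.93 in the middle and -1.71 in the highest. Removing the trend with GC content and transcript length in each library brought the subunits' median to -0.80 and their correlation with GC content to 0.09, while in Scr the same correction took that correlation from -0.19 to 0.44. After that correction 73 of 78 subunits (93.6%) were still higher in replicate 1, against 53.6% of all genes. The corrected medians were -1.13 in complex V, -1.04 in complex IV, -0.76 in complex I, -0.66 in complex III and -0.05 in complex II. Complex V thus came before complex IV, and complex II kept almost no gap. The order of single genes changed too: NDUFB7 then stood at -1.11 and ATP5F1D at -0.73, while NDUFA9 stood at -2.13 and ATP5F1E at -2.01. The correction took the median length of a gene's transcripts, 4502.5 bases for NDUFA9 and 1878 for ATP5F1E, against a median of 749.5 over the subunits. Whether this order holds with another choice of transcript was not tested. The part of base composition in the gap that remains was not tested.

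**Figure D3:**
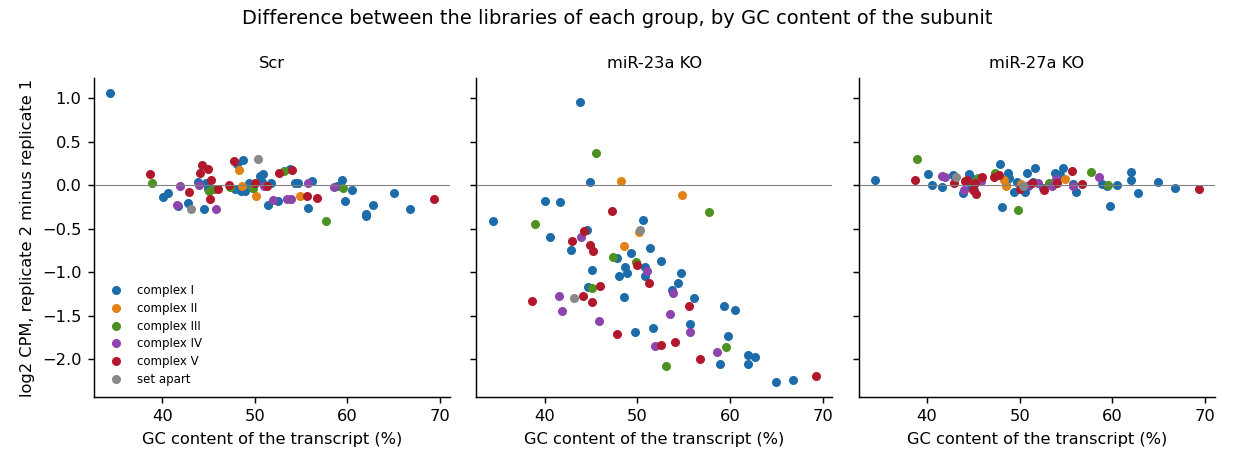
Log2 CPM of replicate 2 minus replicate 1 (vertical axis) against the GC content of the transcript in percent (horizontal axis) for the 78 tested subunits in each group, coloured by complex. The points slope downward in miR-23a KO (Spearman -0.60) and lie near 0 in the other 2 groups.

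The first comparison, miR-23a KO against Scr, compares the cells edited at miR-23a with the control. No subunit passed: 0 of 78 had an adjusted p under 0.05 in edgeR's quasi-likelihood test, where the background was 0% of 13787 genes. At an unadjusted p under 0.05 edgeR also gave 0 of 78 subunits, against 2.41% of all genes, and DESeq2 and limma gave 0 of 78 at either threshold, where the shares of all genes were 2.96% and 2.41% unadjusted and 0.457% and 0.0152% adjusted. The median log2 fold change was 0.23 over the subunits and 0.16 over all genes tested, with 62 subunits fitted higher (62.97% of all genes) and 16 lower. It was 0.32 in complex V, 0.25 in complex IV, 0.24 in complex III, 0.22 in complex I and 0.03 in complex II. The median over all subunits shrank to 0.107 with limma and 0.108 with the replicate number as a block. With that block and GC content and length corrected it was 0.147. Leaving out a miR-23a KO library decides this value: without replicate 1 the median was -0.47, and without replicate 2 it was 0.64 with 36 subunits over 1.5-fold higher at an adjusted p under 0.05 (11.97% of all genes), where the lone library is assumed to vary like Scr.

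Groups did not overlap for few subunits here. Both libraries of miR-23a KO exceeded both of Scr for 4 subunits, NDUFA5, NDUFB3, SDHD and UQCRB, where 8.88% of all genes did so. They lay below for another 4, NDUFA10, NDUFB5, NDUFV2 and SDHA, against 14.9% of all genes.

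The second comparison, miR-27a KO against Scr, takes the cells edited at miR-27a, and here 11 of 78 subunits passed. The 8 that fell, where the background was 9.12% of 13821 genes, were 7 subunits of complex I (NDUFS7, NDUFA7, NDUFA11, NDUFS5, NDUFA9, NDUFB7 and NDUFB4) and COX6B1 of complex IV. The 3 that rose, against 4.88% of all genes, were SDHD of complex II and UQCRC2 and UQCRQ of complex III. With the demand of over 1.5-fold, 1 remained among those that fell (NDUFS7, background 6.74%) and 0 among those that rose (background 3.52%). At the study's thresholds none of the 78 passed in edgeR, where only 2 of the 13821 genes were higher and 2 lower. The study reports far more genes at these thresholds but does not name its test, so its counts and these cannot be set side by side. At an unadjusted p under 0.05 edgeR gave 5 higher (13.8% of all genes) and 21 lower (18.4% of all genes). In both directions together DESeq2 gave 18 (26.5% of all genes) and limma 28 (32.6%). The 2 other tools each put 10 subunits under an adjusted p of 0.05, where DESeq2 put 16.2% and limma 13.2% of all genes.

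The median log2 fold change of the subunits in miR-27a KO was -0.11, against 0.01 over all genes tested. It shrank to -0.071 with GC content and length corrected, -0.0700 without Scr replicate 1 and -0.0633 without miR-27a KO replicate 1. With all libraries it was -0.12 in complexes I and V, -0.10 in complex IV, -0.06 in complex III and 0.06 in complex II. Without overlap of the libraries, 39 subunits were lower in miR-27a KO, where 31.9% of all genes were, and 14 were higher, where 32.4% were. Single libraries weigh on the count that passed: it was 39 without Scr replicate 1, where 39.1% of all genes passed, 39 without Scr replicate 2 (50.1% of all genes), and 0 without either miR-27a KO library (2.96% and 2.29%). At an unadjusted p under 0.05 edgeR gave 5 of 79 subunits in each of the last 2 fits, against 14.7% and 14.2% of all genes. Fitting all 6 libraries together, which lets the miR-23a KO spread into the error, left 0 of the 11, with 0.452% of all genes passing, and applying no filter on low counts left 2 (5.26% of all genes). DESeq2 and a fit with the replicate number as a block each dropped COX6B1 and NDUFB4, limma dropped NDUFA9 and NDUFA11, and a correction for GC content and length dropped COX6B1, NDUFA7, NDUFA11 and NDUFB7. With that correction 7 of 78 subunits passed (8.97%, against 15.8% of all genes). All 11 kept their sign in each of the 13 alternatives.

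**Figure D4:**
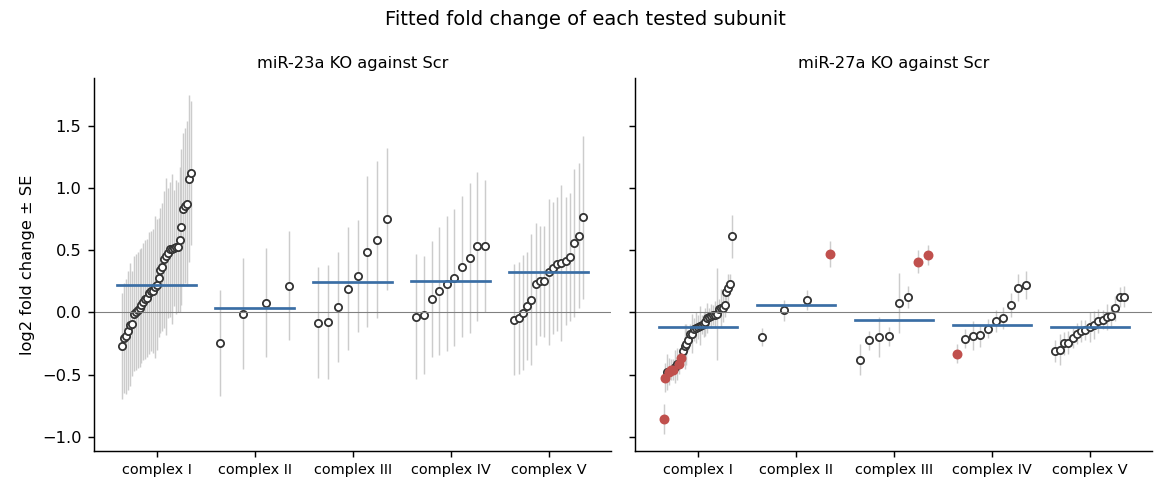
Fitted log2 fold change of each tested subunit with its standard error (vertical axis), by complex, for miR-23a KO (left) and miR-27a KO (right) against Scr, with a bar at each complex's median and filled points for an adjusted p under 0.05. No point is filled on the side of miR-23a KO, whose error bars are long, and 11 are filled on the side of miR-27a KO.

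The third comparison set miR-23a KO against miR-27a KO, which asks whether the 2 knockouts differ from each other. None of the 78 subunits had an adjusted p under 0.05 in edgeR, against a background of 0% of 13841 genes. At an unadjusted p under 0.05 edgeR gave 1 subunit, NDUFA5 (8.73% of all genes), limma gave 1 (8.90%) and DESeq2 gave 5 (9.49%), with 0 after adjustment in both, where limma passed 0.486% and DESeq2 3.45% of all genes. The median log2 fold change was 0.27, against 0.11 over all genes tested, and ran from -0.20 in complex II and 0.22 in complex III to 0.34, 0.41 and 0.44 in complexes IV, I and V. Both miR-23a KO libraries were above both miR-27a KO libraries for 5 subunits (NDUFA5, NDUFB3, NDUFS4, NDUFS7 and UQCRB), against 18.7% of all genes. They were below for another 7 (ATP5F1A, NDUFA10, NDUFB5, NDUFV2, SDHA, SDHD and UQCRC2), against 20.7%. For 1 subunit, NDUFB5, the miR-23a KO libraries lay below both Scr libraries and the miR-27a KO libraries above them, as 6.21% of all genes lay on opposite sides of Scr. The median again turned with the library left out, to -0.40 when miR-23a KO replicate 1 was left out and 0.80 when replicate 2 was. Over 1.5-fold with an adjusted p under 0.05, 18 subunits were then lower (14.8% of all genes) and 1 higher (19.2%) without replicate 1, and 48 higher (25.2%) and 2 lower (26.2%) without replicate 2.

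Complex I binds NADH at the tip of its matrix arm and carries electrons down a row of iron-sulfur clusters to ubiquinone. NDUFS7, a core subunit that holds the last cluster of that row beside the quinone site, lies on chromosome 19 at 1383907 to 1395584 (GRCh38). It stood at 111 and 91.7 CPM in Scr, 302 and 63.6 CPM in miR-23a KO, and 56.7 and 55.4 CPM in miR-27a KO. The miR-27a KO libraries were the lowest of the 6 and almost equal, and the Scr libraries lay between the 2 of miR-23a KO. Group means were 101 ± 13.5 CPM in Scr and 56.0 ± 0.919 CPM in miR-27a KO (SD, n = 2). NDUFS7 fell by 0.86 on the log2 scale in miR-27a KO (standard error 0.12, adjusted p = 0.0163 in edgeR), which was the only fall of over 1.5-fold among the subunits. With GC content and length corrected its log2 fold change was -0.60 with an adjusted p of 0.0104. In miR-23a KO against Scr its fitted log2 fold change was 0.87 with an error of 0.66, and between the knockouts it was 1.71 with an error of 0.78 and an adjusted p of 0.671.

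The other complex I subunits that fell in miR-27a KO are accessory subunits, which surround the core and do not themselves carry electrons. NDUFA9, which binds NADPH near the joint of the matrix and membrane arms, had 81.1 and 78.3 CPM in Scr and 59.1 and 57.1 CPM in miR-27a KO, with 103 and 52.1 CPM in miR-23a KO. Its log2 fold change in miR-27a KO was -0.46 (standard error 0.09, adjusted p = 0.0312), and with GC content and length corrected it was -0.58. NDUFS5, on the intermembrane side of the membrane arm, had 90.8 and 86.5 CPM in Scr and 64.5 CPM in both miR-27a KO libraries, a log2 fold change of -0.46 with an adjusted p of 0.0292 (standard error 0.08). For these genes too, both miR-27a KO libraries were below both of Scr, and those of miR-23a KO lay on either side of Scr.

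NDUFB4, of the membrane arm, had 79.4 and 80.6 CPM in Scr, 120.2 and 53.1 CPM in miR-23a KO and 62.9 and 61.8 CPM in miR-27a KO, with a log2 fold change of -0.36 in the latter (standard error 0.08, adjusted p = 0.0470). NDUFA7, of the matrix arm, had 85.9 and 71.6 CPM in Scr, 156 and 51.5 CPM in miR-23a KO and 54.8 and 55.1 CPM in miR-27a KO. NDUFA11, of the membrane arm, had 185 and 157 CPM in Scr, 484 and 123 CPM in miR-23a KO and 127 and 119 CPM in miR-27a KO. NDUFB7 had 123 and 116 CPM in Scr and 88.5 and 91.0 CPM in miR-27a KO. The log2 fold changes of the last 3 in miR-27a KO were -0.52, -0.48 and -0.41, with adjusted p of 0.0446, 0.0446 and 0.0352. These 3 lost the call when GC content and length were corrected, at log2 fold changes of -0.33, -0.17 and -0.27 with adjusted p of 0.0602, 0.201 and 0.117. Their transcripts are 55.7%, 62.7% and 65.0% G and C, against a median of 49.9% over the 78 subunits, but NDUFS7, at 66.8%, kept its call.

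The core subunits NDUFV1 and NDUFS1 did not pass in any comparison. NDUFV1, which holds the flavin and the NADH site, had 156 and 150.5 CPM in Scr, 255 and 94.0 CPM in miR-23a KO and 149.5 and 150.0 CPM in miR-27a KO. Its log2 fold change was 0.22 (error 0.53) in miR-23a KO and -0.04 (error 0.08) in miR-27a KO against Scr, and 0.22 (error 0.55) between the knockouts. NDUFS1, the largest subunit of that tip and a carrier of iron-sulfur clusters, had 114 and 117 CPM in Scr, 83.6 and 162 CPM in miR-23a KO and 140.4 and 131 CPM in miR-27a KO. It was thus the subunit with the opposite order of the miR-23a KO libraries by the widest margin. With GC content and length corrected, its log2 difference of replicate 2 minus replicate 1 fell from 0.95 to 0.10. Its log2 fold change in miR-27a KO was 0.23 with an adjusted p of 0.125, and it was 0.17 in miR-23a KO and -0.14 between the knockouts.

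The highest fitted changes of miR-23a KO against Scr were all in complex I, in NDUFA5, NDUFB7 and NDUFS7. NDUFA5, of the matrix arm, had 6.19 and 13.0 CPM in Scr, 22.98 and 17.2 CPM in miR-23a KO, and 9.33 and 9.76 CPM in miR-27a KO. Both miR-23a KO libraries were above all others, but the Scr libraries differed from each other by over 2-fold. The fitted log2 fold change was 1.12 (error 0.58) against Scr and 1.08 (error 0.36, adjusted p = 0.478) against miR-27a KO. NDUFB7 followed in miR-23a KO against Scr with 1.08 (error 0.67) and reached 1.47 (error 0.78) between the knockouts, where NDUFA11 had 1.31 (error 0.70). At the low end against Scr were NDUFA10, with 145 and 155 CPM in Scr and 136 and 103 CPM in miR-23a KO (log2 -0.27, error 0.43), and NDUFB5 (log2 -0.20, error 0.44).

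NDUFB1, a small membrane arm subunit, had the highest fitted change in miR-27a KO, from 14.6 and 17.3 CPM in Scr to 26.6 and 22.3 CPM. Its log2 fold change of 0.61 (error 0.17) had an adjusted p of 0.0740 and so did not pass, and miR-23a KO held 30.1 and 14.5 CPM. NDUFA13, which was also found as a protein linked to cell death, had 131 and 103 CPM in Scr and 79.6 and 88.6 CPM in miR-27a KO, with a log2 fold change of -0.48 and an adjusted p of 0.0869. In all, 29 of the 37 complex I subunits were fitted lower in miR-27a KO and 8 higher, against 49.2% of all genes lower, and without overlap 20 were lower (31.9% of all genes) and 5 higher (32.4%).

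**Figure D5:**
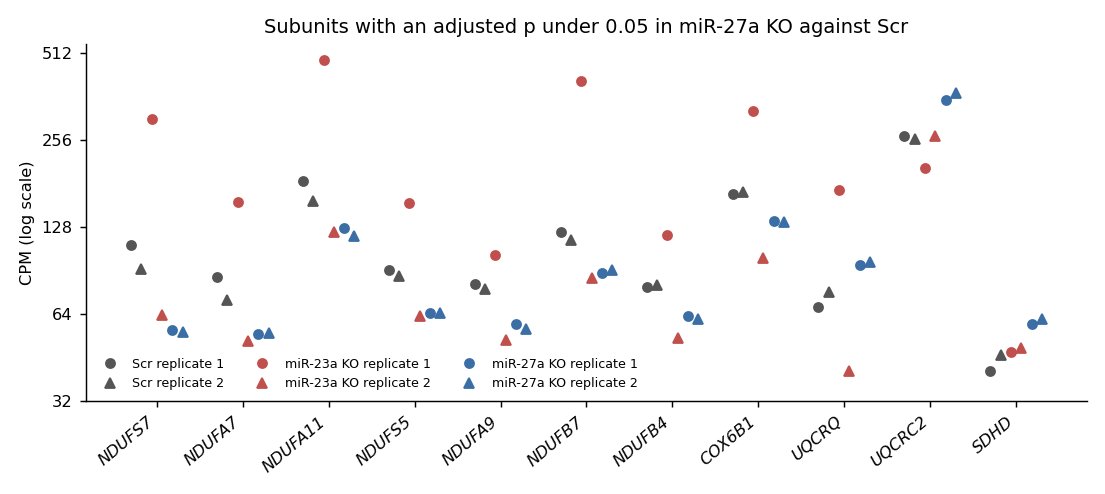
CPM on a log scale (vertical axis) of the 11 subunits with an adjusted p under 0.05 in miR-27a KO against Scr, with 1 point for each of the 6 libraries. The miR-27a KO points of a gene lie close together and apart from those of Scr, and in every gene but SDHD (47.5 and 49.1 CPM) those of miR-23a KO lie furthest apart, as for NDUFS7 (302 and 63.6 CPM).

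The microRNAs that were removed pair with messenger RNAs through their seed, bases 2 to 8, and they are shown because the site of miR-27a in NDUFS7 and those of miR-23a in NDUFA5 lie in the subunits with the lowest fitted change in miR-27a KO and the highest in miR-23a KO. Their mature sequences (RefSeq, GRCh38.p14) have the seed in capitals, for miR-23a-3p from chr19:13836595-13836615 and for miR-27a-3p from chr19:13836447-13836467, both on the minus strand.
miR-23a-3p: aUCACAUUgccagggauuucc
miR-27a-3p: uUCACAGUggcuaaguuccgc
Matches to the seed, AATGTGA for miR-23a-3p and ACTGTGA for miR-27a-3p, are in capitals in these stretches of GENCODE 29 transcripts, read 5′ to 3′.
NDUFS7, miR-27a-3p: ggaggcttagtttgACTGTGAggttag
NDUFA5, miR-23a-3p, site 1: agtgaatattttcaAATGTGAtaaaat
NDUFA5, miR-23a-3p, site 2: gaaatcacagtgggAATGTGAtaaggg
NDUFA5, miR-23a-3p, site 3: atttatcgcacttcAATGTGAatatga
A match to these letters is a description and not a measured site. For each gene only the longest annotated stretch behind the coding sequence was searched, so other transcripts of a gene may lack the match. That stretch had 2174 bases in NDUFS7, where the median length of its transcripts was 1039 bases. In NDUFA5 it had 5122 bases, against 1702.5. Of the 85 subunits, 20 held a match for miR-23a-3p in the stretch behind the coding sequence (23.5%, against 19.3% of 15919 genes) and 6 held one for miR-27a-3p (7.06%, against 16.6%). That stretch was short in the subunits, at a median of 449 bases against 1209 over all genes. In miR-23a KO the median log2 fold change was 0.19 for the 19 tested subunits with a miR-23a-3p match and 0.25 for the 59 without. In miR-27a KO it was -0.16 for the 6 subunits with a miR-27a-3p match and -0.10 for the 72 without. The 19 with a miR-23a-3p match ran in miR-23a KO from -0.20 in NDUFB5, which held 2 matches, to 1.12 in NDUFA5. Of these 19, 15 were fitted higher, as were 47 of the 59 without. NDUFS7, with a miR-27a-3p match, had less transcript in miR-27a KO.

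Complex II is the only complex here without a subunit from mitochondrial DNA. SDHD, which anchors it in the inner membrane, had 40.9 and 46.3 CPM in Scr, 47.5 and 49.1 CPM in miR-23a KO, and 59.3 and 61.8 CPM in miR-27a KO. The 3 groups did not overlap, with Scr lowest and miR-27a KO highest. SDHD rose in miR-27a KO, at a log2 fold change of 0.47 with an adjusted p of 0.0463 (standard error 0.11), while in miR-23a KO the fitted value was 0.21 (error 0.44). SDHC, the other anchor, had 169 and 156 CPM in Scr, 196 and 134 CPM in miR-23a KO and 174 and 175 CPM in miR-27a KO, a log2 fold change of 0.10 in miR-27a KO (adjusted p = 0.452). The catalytic flavoprotein SDHA had 259.5 and 239 CPM in Scr and 246 and 258 CPM in miR-27a KO, log2 0.02, and stood lower in both miR-23a KO libraries at a log2 of -0.24 (error 0.43). SDHB, which carries the iron-sulfur clusters, had 187 CPM in both Scr libraries and 164 and 162 CPM in miR-27a KO, with a log2 fold change of -0.20 and an adjusted p of 0.137. Between the knockouts the log2 values were -0.32 for SDHA and 0.14 for SDHB.

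In complex III the core proteins UQCRC1 and UQCRC2, which form the large matrix portion, were both abundant. UQCRC2 had 265 and 257 CPM in Scr, 204 and 264 CPM in miR-23a KO and 351 and 371 CPM in miR-27a KO. It rose in miR-27a KO by a log2 of 0.46 (standard error 0.08, adjusted p = 0.0261), and its fitted value between the knockouts, -0.62 (error 0.35), was the lowest of all 78 subunits. UQCRC1 had 419 and 409 CPM in Scr, 893 and 246 CPM in miR-23a KO and 355 and 356 CPM in miR-27a KO. Its log2 fold change was 0.49 (error 0.61) in miR-23a KO, -0.22 (adjusted p = 0.115) in miR-27a KO and 0.69 between the knockouts. Whether UQCRC1 and UQCRC2 differ in their response was not tested.

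UQCRQ, a small membrane subunit, rose in miR-27a KO by a log2 of 0.41 (standard error 0.09, adjusted p = 0.0479), from 67.9 and 76.2 CPM in Scr to 95.0 and 96.8 CPM. Its miR-23a KO libraries held 172 and 40.6 CPM, the highest and the lowest of the 6. UQCRFS1, the Rieske iron-sulfur protein, had 187 and 178 CPM in Scr, 282 and 124 CPM in miR-23a KO and 158 and 162 CPM in miR-27a KO. Its log2 fold changes were 0.19 (error 0.50), -0.19 (error 0.08, adjusted p = 0.160) and 0.35 (error 0.49) in the 3 comparisons. UQCRB, a subunit near the quinone pocket, was scarce, at 5.84 and 5.95 CPM in Scr, 11.0 and 8.08 CPM in miR-23a KO and 5.58 and 6.87 CPM in miR-27a KO. CYC1, the cytochrome c1 subunit, falls outside the symbol prefixes and was listed with the electron carriers. It had 271 and 230.4 CPM in Scr, 714 and 159 CPM in miR-23a KO and 209 and 217 CPM in miR-27a KO.

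Complex IV has its catalytic centres in subunits from mitochondrial DNA, and the nuclear subunits surround and regulate them. COX6B1, which faces the intermembrane space, fell in miR-27a KO from 166 and 169 CPM in Scr to 134 and 133 CPM, while miR-23a KO held 323 and 100.1 CPM. The fitted log2 value was -0.33 (standard error 0.07, adjusted p = 0.0446), and with GC content and length corrected it was -0.15 with an adjusted p of 0.318, so the call was lost. COX4I1, a regulatory subunit that binds ATP, had 288 and 257 CPM in Scr, 420.0 and 178 CPM in miR-23a KO and 278 and 292 CPM in miR-27a KO. Its log2 fold changes were 0.17 (error 0.51), 0.06 (error 0.09) and 0.07 (error 0.51). COX5A had 191 and 189 CPM in Scr, 241 and 122 CPM in miR-23a KO and 165 CPM in both miR-27a KO libraries, with a log2 fold change of -0.21 and an adjusted p of 0.121 in the latter and -0.02 in miR-23a KO. COX5B, which binds zinc, had 171 and 152 CPM, 358 and 98.9 CPM, and 153 and 155 CPM in the same order, with log2 fold changes of 0.53 and -0.07 against Scr.

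Several complex IV subunits have a second gene with a tissue-restricted or stress-related form, and 3 such forms, COX4I2, COX6B2 and COX7A1, were too scarce here to be tested. COX4I2, the lung form that answers to low oxygen, had 0 to 3 counts per library, against 344 RPKM for COX4I1 in Scr. COX6B2, the testis form, had 0 to 2 counts and COX7A1, the form of heart and skeletal muscle, 0 to 6 counts. Their common partners, COX6B1 with 295 RPKM and COX7A2 with 165 RPKM in Scr, were among the abundant transcripts. COX7A2 had a log2 fold change of -0.19 in miR-27a KO, COX7B -0.18, COX8A -0.13 and COX6A1 -0.05, and none of the 4 passed. In miR-23a KO against Scr the same 4 had 0.28, 0.53, 0.44 and 0.23, with standard errors of 0.53 to 0.60.

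In complex V the catalytic head of ATP synthase alternates alpha and beta subunits. ATP5F1B, the catalytic beta subunit, had 975 and 970.2 CPM in Scr, 1391 and 639 CPM in miR-23a KO, and 839.8 and 852 CPM in miR-27a KO. The miR-27a KO libraries lay below Scr and close together, and the log2 fold change of -0.20 (error 0.08) had an adjusted p of 0.152. ATP5F1A, the alpha subunit, had 531 and 533 CPM in Scr, 541 and 440.1 CPM in miR-23a KO and 563 and 599 CPM in miR-27a KO, with a log2 fold change of 0.12 (adjusted p = 0.350). In miR-23a KO against Scr the values were 0.10 (error 0.53) for ATP5F1B and -0.06 (error 0.45) for ATP5F1A, and between the knockouts 0.27 and -0.24. None of the 17 tested complex V subunits passed in any comparison with edgeR, and at an unadjusted p under 0.05 there were 4 in miR-27a KO, all lower, where 18.4% of all genes were. By direction alone, 14 of the 17 were fitted lower in miR-27a KO, against 49.2% of all genes.

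ATP5F1D, the delta subunit of the central stalk, is the tested subunit richest in G and C, at 69.3%. It had 160.3 and 144 CPM in Scr, 418 and 91.1 CPM in miR-23a KO and 139 and 135 CPM in miR-27a KO, and a fitted log2 of 0.77 (error 0.66) in miR-23a KO. ATP5MF, the f subunit of the membrane portion, had 165 and 181 CPM, 389.9 and 109 CPM, and 157 and 151 CPM, with log2 fold changes of 0.56 and -0.17 against Scr. ATP5MGL, a copy of the g subunit gene, had 0 or 1 count in each library.

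Among the genes set apart, ATP5IF1, which blocks the ATP synthase from running backward, had 91.0 and 112 CPM in Scr, 116 and 81.5 CPM in miR-23a KO and 90.2 and 89.8 CPM in miR-27a KO. Its log2 fold changes were 0.02 (error 0.43), -0.18 (error 0.12, adjusted p = 0.362) and 0.14 (error 0.35). COX7A2L, which helps complexes III and IV join into supercomplexes, had 161 and 133 CPM, 210.2 and 85.2 CPM, and 142 and 152 CPM, with a log2 fold change of 0.00 in miR-27a KO (error 0.12). NDUFA4, now placed in complex IV although first named for complex I, had 3 to 12 counts per library. How reads were assigned to NDUFA4 is not known here, so these counts alone do not show that the gene is silent. Its relative NDUFA4L2, induced by low oxygen in other cells, had 60 counts in Scr replicate 1 and 9 in replicate 2. NDUFA4L2 had 6 and 7 counts in miR-23a KO and 1 and 8 counts in miR-27a KO. UQCRHL, a copy of UQCRH, had 0 to 2 counts.

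Per length, the most abundant subunit transcripts of complex V in Scr were ATP5MF (535 RPKM) and ATP5F1B (529 RPKM). Within the other complexes the highest were COX6A1 (397 RPKM) of complex IV, SDHC (353 RPKM) of complex II, NDUFB7 (225 RPKM) of complex I and UQCRC1 (208 RPKM) of complex III. Further subunits of complexes IV and V, such as COX4I1 (344 RPKM), lay above NDUFB7 and UQCRC1. Scr replicates gave a standard deviation of 36.7 RPKM for ATP5MF, wider than its distance to ATP5F1B, so their order is not set. The median of the 85 genes was 106 RPKM. With the longest transcript of each gene as its length the median was 56.1 RPKM, SDHC had 11.97 RPKM and ATP5MF 285 RPKM, while ATP5F1B stayed at 529 RPKM, so the places of SDHC and ATP5MF rest on the choice of transcript. Scarce among the tested subunits were NDUFA5 (5.65 RPKM) and UQCRB (9.14 RPKM).

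Promoters of the subunits are known for sites of the factors NRF1, GABP and YY1. In 300-base windows from RefSeq (GRCh38.p14), 250 bases before and 50 from the start of the transcript, 69 of the 85 genes were found. The letters searched, on both strands, were CGCANGCGC for NRF1, CCGGAAG for the ETS family with GABP, and AAGATGGCG for YY1, where matches of NRF1 on opposite strands can overlap. NRF1 letters were in 22 of 69 windows (31.9%, against 12.3% of 15000 genes of the table and 8.05% of all 27305 windows). ETS letters were in 20 (28.99%, against 15.7% and 10.7%) and YY1 letters in 8 (11.6%, against 2.99% and 1.85%). At least 1 motif was in 39 windows (56.5%, against 27.3% and 18.3%). Complex III had any motif in 6 of 7 windows, complex II in 3 of 3, complex V in 9 of 13, complex I in 16 of 32 and complex IV in 5 of 10.

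For the subunits that fell in miR-27a KO, 7 windows were found and all 7 held a motif, and for those that rose 2 of 3 did. The windows of NDUFS7 and NDUFA9, which fell, and SDHD, which rose, are printed because they hold matches to 2 kinds of motif. NDUFB4, which also fell, held 4 NRF1 matches and no other kind. Capitals mark the matches: NRF1 and then YY1 in NDUFS7 and NDUFA9, with that of NRF1 on the reverse strand in NDUFA9, and in SDHD NRF1 on both strands and then ETS on the reverse strand. The windows are read from the plus strand, on which the 3 genes lie, NDUFS7 at chr19:1383657-1383956, NDUFA9 at chr12:4648864-4649163 and SDHD at chr11:112086623-112086922.
NDUFS7: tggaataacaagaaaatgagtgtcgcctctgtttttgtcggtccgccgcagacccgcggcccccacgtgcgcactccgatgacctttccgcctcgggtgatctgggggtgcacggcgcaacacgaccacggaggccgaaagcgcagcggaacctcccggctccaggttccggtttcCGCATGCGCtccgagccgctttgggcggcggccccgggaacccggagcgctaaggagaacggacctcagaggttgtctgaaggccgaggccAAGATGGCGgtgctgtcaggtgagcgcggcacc
NDUFA9: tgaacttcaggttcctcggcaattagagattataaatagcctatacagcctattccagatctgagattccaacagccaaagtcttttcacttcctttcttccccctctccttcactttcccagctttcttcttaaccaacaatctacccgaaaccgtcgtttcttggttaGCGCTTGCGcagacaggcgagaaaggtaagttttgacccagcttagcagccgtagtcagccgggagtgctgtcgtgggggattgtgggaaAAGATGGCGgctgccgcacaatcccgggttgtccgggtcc
SDHD: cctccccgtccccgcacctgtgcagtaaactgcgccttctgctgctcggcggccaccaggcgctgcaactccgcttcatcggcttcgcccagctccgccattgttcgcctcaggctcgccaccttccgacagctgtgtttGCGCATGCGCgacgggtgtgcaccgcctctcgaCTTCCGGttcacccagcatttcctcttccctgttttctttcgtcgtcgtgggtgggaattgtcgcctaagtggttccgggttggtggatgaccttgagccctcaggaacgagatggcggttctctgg
A match is a description of the sequence, and binding was not measured.

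Other genes of the same pathways were followed as lists, to be read beside the 4.88% of all genes that rose and the 9.12% that fell in miR-27a KO. Of 52 assembly factors, 1 rose and 3 fell in miR-27a KO, among them COX20, which helps build complex IV (52.9 and 65.1 CPM in Scr, 33.8 and 22.95 CPM in miR-27a KO, log2 -1.06, adjusted p = 0.0365). ATPAF1, an assembly factor of the ATP synthase, was the one that rose (log2 0.56, adjusted p = 0.0378). The list's median was -0.03 in miR-27a KO and 0.27 in miR-23a KO. Of 14 regulators of mitochondrial gene expression, 2 rose and 2 fell in miR-27a KO, with medians of 0.05 and 0.32 in the same order. The coactivator PPARGC1A rose there, at 16 and 44 counts in Scr, 162 and 153 in miR-27a KO and 0 in both miR-23a KO libraries (log2 2.21, adjusted p = 0.0374 in miR-27a KO). Its relative PPARGC1B fell, from 72 and 46 counts in Scr to 13 and 5 in miR-27a KO, with 34 and 134 in miR-23a KO (log2 -2.88, adjusted p = 0.0333).

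Of 8 tested electron carriers and feeders none passed in edgeR, and 1 was higher in miR-27a KO at an unadjusted p under 0.05. Their medians were 0.17 in miR-27a KO and -0.16 in miR-23a KO. Of 13 genes of the tricarboxylic acid cycle 1 fell in miR-27a KO, OGDH (log2 -0.37, adjusted p = 0.0382), with medians of -0.08 and 0.17 in that order. Of 78 proteins of the mitochondrial ribosome, which translates the subunits of mitochondrial DNA, 1 rose and 6 fell in miR-27a KO, led by MRPL34 (log2 -1.01, adjusted p = 0.00550) and MRPL41 (log2 -0.56, adjusted p = 0.0268). Their medians were -0.06 in miR-27a KO and 0.38 in miR-23a KO. Of 78 tested proteins of the cytosolic ribosome 1 rose, RPL7 (log2 0.52, adjusted p = 0.0302), with medians of 0.14 and 0.19. In the comparisons that include miR-23a KO none of these genes passed in edgeR, and at an unadjusted p under 0.05 there were 1 regulator and 1 carrier lower and 2 mitochondrial ribosome genes higher in miR-23a KO against Scr (0.856% of all genes higher, 1.55% lower). Against miR-27a KO there were 1 assembly factor, 1 regulator and 1 mitochondrial ribosome gene higher and 1 regulator and 1 carrier lower (4.66% and 4.07% of all genes).

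These ribosomal lists show the gap between the miR-23a KO libraries too. The median of replicate 2 minus replicate 1 was -1.16 over the 78 cytosolic ribosome genes and -0.79 over the 78 of the mitochondrial ribosome, beside -1.12 over the subunits. For the cytosolic ribosome the Scr libraries also differed, with a median of -0.32 and 77 of 78 genes higher in replicate 1.

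Markers of cell identity were read in the same libraries. The 8 hepatocyte markers summed to 26617 and 34887 CPM in Scr, 29206 and 30732 CPM in miR-23a KO and 19222 and 18956 CPM in miR-27a KO, and 3 of 8 fell in miR-27a KO. Another 3, SERPINA1 and HNF4A among them, lay above Scr there without overlap, with 2 at an unadjusted p under 0.05 and 0 after adjustment in edgeR. Albumin (ALB) had 149877 and 223691 counts in Scr, 103839 and 271337 counts in miR-23a KO, and 34460 and 35719 counts in miR-27a KO. SERPINA1 had 154517 and 163185, 154840 and 86130, and 210683 and 207113 counts in that order. Of the fibroblast markers COL1A1 had 0 to 2 counts, and the 3 endothelial markers summed to 3.35 to 6.84 CPM. The 4 leukocyte markers summed to 379.5 and 411 CPM in Scr, 127.9 and 184 CPM in miR-23a KO and 1499 and 1563 CPM in miR-27a KO, almost all of it LYZ. The defining leukocyte genes PTPRC and CD3E were at 1 to 2 and 1 to 7 counts. The part of these shifts in the results for the subunits was not tested.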

How the data were processed

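RNA sequencing values of 6 HepG2 libraries, 2 for each of the groups miR-23a KO, miR-27a KO and Scr, were read from the table the authors deposited, which holds expected counts (estimated counts per gene) not scaled for depth or length, although FPKM is the word in its headers. The totals and the spread of the values led to that reading. The submitters' notes name HISAT, StringTie, Cufflinks and GATK without versions, and the genome build of the alignment is not given in the sources used here. The members and gene lists were chosen with earlier results of these data known.

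Counts were rounded, filtered with filterByExpr, scaled by TMM and fitted for each pair of groups alone with edgeR's quasi-likelihood test (R 4.3.3, edgeR 4.0.16), with Benjamini-Hochberg adjustment over all genes tested. No value column was left out (0 unused). Transcript lengths, GC content and the stretches behind coding sequences came from GENCODE 29, which matched 17888 of the 20026 genes (89.3%) and all 85 subunits. RPKM and the correction for GC content and length used the median over a gene's transcripts. Seed matches were searched in the longest stretch of each gene. Sequences of microRNAs and promoters came from RefSeq.

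Named genes were, in each comparison, members over 1.5-fold with an adjusted p under 0.05 (at most 10), the 3 highest and 3 lowest fitted changes, 13 core or regulatory subunits, isoform pairs, the most abundant member of each complex per length, and 2 genes of each other list. The other genes named, among them those that passed under 0.05 below 1.5-fold, were chosen after their values were seen.

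The alternatives tried were DESeq2 1.42.0, its median-ratio scaling within edgeR, keeping genes of low counts, all 6 libraries in one fit, the replicate number as a block, an offset for GC content and length (loess with span 0.5 and degree 2) alone and with that block, limma 3.58.1 on log2 of RPKM plus 0.1, leaving out each library, and the longest transcript as a gene's length. Adding the readthrough genes' counts to NDUFC2 and ATP5MF was chosen after seeing the data.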

Additional observations from a re-analysis of the deposited data

Results flagged for a closer look

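NDUFB5, an accessory subunit in the membrane arm of complex I, was the 1 of 78 tested subunits for which both miR-23a KO libraries lay on one side of both Scr libraries and both miR-27a KO libraries on the other, as 859 of 13841 genes (6.21%) did. It had 46.1 and 41.8 CPM in Scr, 38.9 and 34.2 CPM in miR-23a KO and 48.3 and 52.6 CPM in miR-27a KO. Between the knockouts edgeR gave it an adjusted p of 0.792, with a log2 fold change of -0.46 and a standard error of 0.31, so the difference did not pass the test.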

How the results depend on the processing

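With 2 libraries a group the spread is poorly known, and where a library was left out the lone one was assumed to vary like the other group. The medians of the subunits were 0.11, -0.11 and 0.18 in the 3 comparisons as ordered in the text with a replicate block, in which 9 subunits stayed under an adjusted p of 0.05 in miR-27a KO (11.5%, against 16.2% of all genes). Deviations of like-numbered libraries over 13444 genes correlated at 0.17 between Scr and miR-23a KO. They correlated at 0.03 between Scr and miR-27a KO and at 0.02 between the knockouts. Whether like numbers share a batch was not tested. Over 1.5-fold with an adjusted p under 0.05, the subunits higher in miR-23a KO ranged from 0 to 36 when a library was left out (up to 11.97% of all genes), and the median from -0.47 to 0.64. In miR-27a KO those higher were 1 with GC content and length corrected plus the replicate block (6.15% of all genes), 1 with limma (3.32%), and 0 to 2 with a library left out (up to 13.4%). Those lower were 0 with all 6 libraries in one fit (0.431% of all genes) and 0 to 4 with a library left out (up to 12.7%). The median there was -0.071 with GC content and length corrected, -0.064 with the replicate block added, and -0.13 to -0.063 with a library left out. Between the knockouts, 1 was higher with the correction and the replicate block together (4.27% of all genes), 0 to 48 were higher (up to 25.2%) and 0 to 18 lower (up to 26.2%) with a library left out, and the median ran from -0.40 to 0.80. The median level was 56.1 RPKM with the longest transcript. When a miR-23a KO library was left out, 17 of the named subunits passed between the knockouts with the sign turned, in fits where 57.3% or 68.0% of all genes passed, and their log2 fold changes ran over the libraries left out from -0.41 to 0.72 for ATP5F1B, -0.15 to 0.37 for ATP5IF1, -0.51 to 1.35 for ATP5MF, -0.69 to 0.56 for COX4I1, -0.44 to 0.56 for COX5A, -0.65 to 1.22 for COX5B, -0.70 to 0.80 for COX6A1, -0.42 to 1.28 for COX6B1, -0.56 to 1.02 for COX7A2, -0.23 to 1.24 for COX7B, -0.73 to 1.20 for COX8A, -0.70 to 0.24 for NDUFS1, -0.68 to 0.77 for NDUFV1, -0.27 to 0.45 for SDHB, -0.38 to 0.17 for SDHC, -0.54 to 1.33 for UQCRC1 and -0.38 to 0.82 for UQCRFS1. Counting every named subunit and setting, the sign differed from the reported one in 21, 5 and 19 values with a library left out and in 8, 10 and 6 under the other settings. The readthrough counts, added after seeing the data, left 12 under an adjusted p of 0.05 in miR-27a KO (15.4%, against 13.995% of all genes). The cause of these shifts was not tested.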
